A study of Mus musculus with 8 samples.

Results

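RNA recovered with the RNA-binding protein DAZL was compared with the starting RNA of fetal ovaries on 4 of the 8 arrays of the series, 2 of the immunoprecipitate (IP_XX) and 2 of the input (Input_XX). The question was which functional classes of mRNA were over- or under-represented in the DAZL pull-down of XX gonads. In RNA immunoprecipitation (RIP), an antibody draws a protein out of a cleared lysate, and the co-precipitated RNA is set against the RNA of the same lysate. Per the labels, each lot held 50 pooled gonads of MCH embryos at E14.5, an anti-Dazl antibody on protein G beads was used, and 5% of the material was set aside as input. Labelled cRNA was made from 50 ng of input RNA but from 1 ng of precipitated RNA. No gene was altered in these embryos, and no pull-down with a control antibody was analysed here, so each difference is relative to input alone, and binding to DAZL cannot be told apart from RNA held by the beads or the antibody. Nothing in the labels says that the 2 arrays of a group came from separate lots of gonads, so the p-values measure the spread between arrays, which may be technical.

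DAZL is made in germ cells, where it binds U-rich elements, usually in 3′ untranslated regions, and acts on the translation and stability of its target mRNAs. It is required for germ cells of both sexes. At this stage germ cells of the fetal ovary are entering meiosis, while supporting cells, stroma, endothelium and blood make up the rest of the gonad. A whole gonad therefore gives an input of many cell types, and a pull-down of a germ cell protein draws from one of them. In such a bulk sample fewer cells of a type and less RNA per cell cannot be told apart.

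The labelled tissue was checked against its markers in the inputs. The germ cell genes Dazl, Ddx4, Dppa3, Sycp3 and Stra8 were well above background on both inputs, and Pou5f1 on 1 of them. Of the ovarian supporting cell markers, Fst and Wnt4 were above background on both inputs, Bmp2 on 1 and Foxl2 on neither. The Sertoli markers Amh and Dhh were above background on neither input, whereas Sox9 was above it on both at a log2 signal of -0.70 and -0.64. Of the Leydig cell markers, Cyp17a1 was above background on both inputs at -1.17 and -0.98, and Cyp11a1 and Star on 1 each. Xist, which is made from the inactive X chromosome, was above background on both inputs and the Y-linked genes Ddx3y, Eif2s3y, Kdm5d and Uty on neither.

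The IP arrays were much dimmer than the input arrays. Of 41101 probes, 20391 and 16713 were well above background on the inputs and 6488 and 8761 on the IPs. Signals are given here as log2 of the background-subtracted intensity after division by each array's 75th percentile, so that 0 is the level of that percentile. On the IP arrays this percentile (8.98 and 12.6 scanner units) was below the weakest signal that counted as above background, which stood at a log2 signal of 1.02 and 0.28. The Pearson correlation across the 5567 probes above background on all 4 arrays was 0.995 between the inputs and 0.949 between the IPs, and probes are not independent replicates.

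A probe was called recovered when it was at least 4-fold higher in the IP at an adjusted p under 0.05 and above background on both IP arrays, and depleted when it was at least 4-fold lower at the same p and above background on both inputs. Of 18265 probes tested, 1497 (8.2%) were recovered and 1810 (9.91%) were depleted. With 1 probe for each named gene, 12223 genes were tested, of which 1025 (8.39%) were recovered and 1402 (11.5%) were depleted. The median log2 difference over all of these genes was -0.10. The fold limit rather than the p decided the calls, since 1498 probes above background on both IPs were at least 4-fold higher at any p and 1497 of them passed. The recovered gene nearest the limit lay at a log2 difference of 2.00, and so did the nearest gene left out.

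Both calls depended on the level of the RNA in the input. Over the genes above background on both inputs, sorted into 4 equal bins of input level from low to high, 4.44%, 9.6%, 11.5% and 10.8% were recovered, while 0.0%, 6.45%, 21.4% and 22.4% were depleted. The share above background on both IPs rose over the same bins from 4.58% to 84.6%. In the lowest bin 128 genes were above background on both IPs and 124 of them were recovered, so the share recovered there was set by detection. A gene of low input could hardly be called depleted either, since its IP signal could not be read far enough down. Both IPs read 398 of the 1810 depleted probes above background, 1 IP read 526 and neither read 886, and for the last group a fall is given as "at least".

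**Figure D1:**
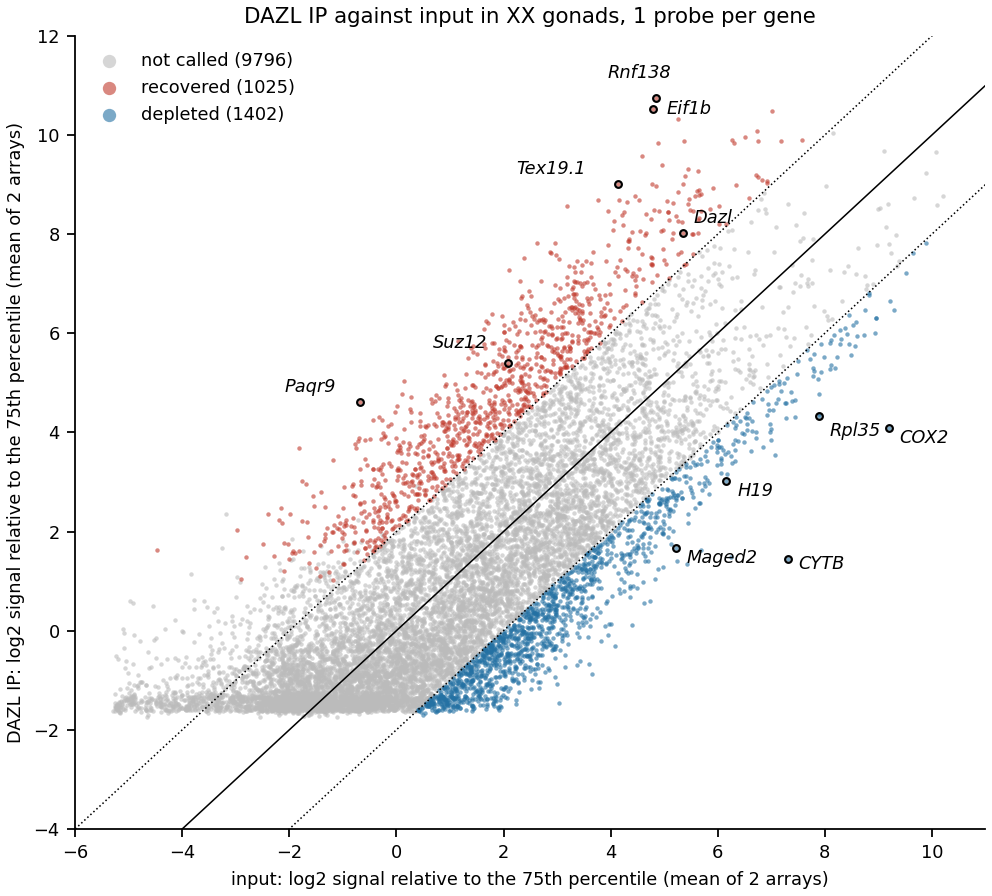
Mean log2 signal of the 2 DAZL IP arrays against the mean of the 2 input arrays for the 12223 genes tested in XX gonads, each relative to the 75th percentile of its array. Red points are the 1025 recovered genes, blue points the 1402 depleted genes, grey points the rest. The solid line marks equality and the dotted lines a 4-fold difference, and the flat lower edge of the cloud is the IP background.

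**Figure D2:**
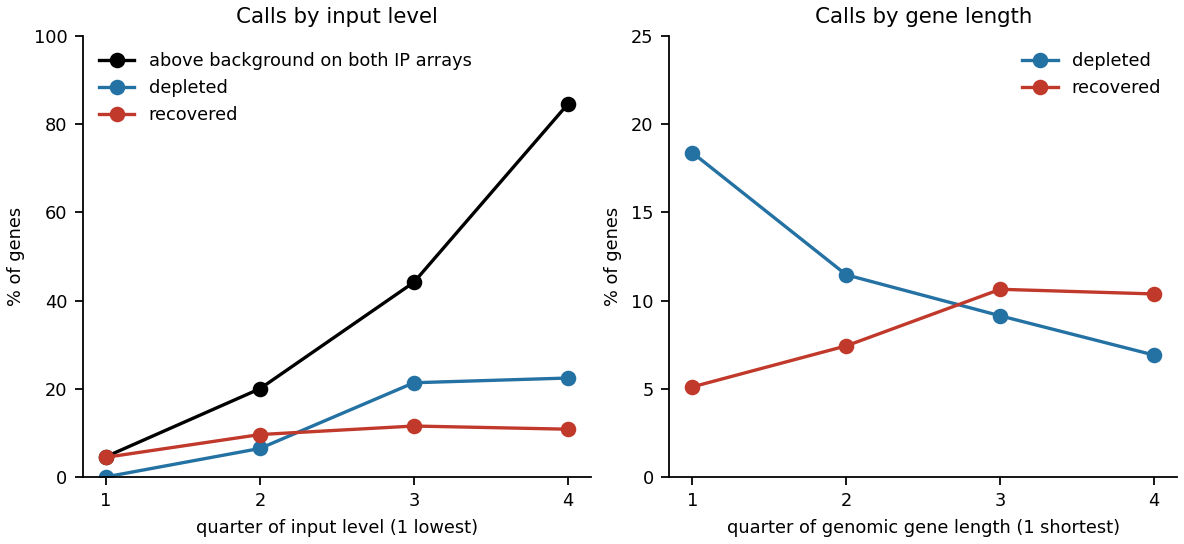
Left, the share of genes recovered (red), depleted (blue) and above background on both IP arrays (black) in each of 4 bins of input level. Right, the share recovered and depleted in each of 4 bins of genomic gene length; depletion falls from 18.4% of the shortest to 6.90% of the longest genes.

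Background correction with an added offset had a large effect on the recovered side, and the effects of the correction and of the offset were not tested apart. With normexp correction and an offset of 50 scanner units, which is above the 75th percentile of both IP arrays, 67 probes were recovered and 2088 were depleted. Under that setting no class described here had more than 2 recovered genes. Scaling to the 50th percentile moved the median of all genes by -2.01 and left 160 recovered probes. Counts of recovered genes therefore hold for the processed signal, and the order of the class medians changed with the processing too. Relative to all genes, the median of the germline RNA-binding protein genes was 1.80 as reported here, 0.51 with normexp and 0.74 with every signal raised to a common floor, the highest among the weakest above-background signals of the 4 arrays. Where a class is said to have no gene called in one direction, leaving out 1 array gave at most 1 such gene.

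Dazl mRNA itself was recovered. Its brightest probe (A_52_P271166, mm8 chromosome 17, 49745165 to 49745224) gave a log2 signal of 5.30 and 5.39 in the inputs and 8.23 and 7.83 in the IPs. Both IPs lay above both inputs, with a log2 difference of 2.69 ± 0.39 (SE, n = 2 arrays per group, limma adjusted p = 0.00030963). A second Dazl probe was at 6.31 and 5.97 in the IPs, again above both inputs, with a log2 difference of 3.09 ± 0.39. With normexp the difference of the first probe was 0.45, and with scaling to the 50th percentile 0.68, and neither passed.

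Of 12 transcripts linked to DAZL in earlier work, 4 were recovered (33.3%, against 8.39% of all genes) and none was depleted. Their median log2 difference was 2.34. Tex19.1, a germ cell gene that restrains retrotransposons, was highest (probe on mm8 chromosome 11, 120964261 to 120964320), at 4.04 and 4.22 in the inputs and 8.50 and 9.53 in the IPs, a log2 difference of 4.88 ± 0.46. Suz12, a core subunit of Polycomb repressive complex 2, was at 2.05 and 2.11 in the inputs and 5.49 and 5.30 in the IPs. Sycp3, which encodes a lateral element protein of the synaptonemal complex, was at 4.38 and 4.44 in the inputs and 7.26 and 7.05 in the IPs. These 3 and Dazl were the recovered members, and in each of them the IPs lay apart from the inputs.

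The other 8 did not pass. The RNA helicase gene Ddx4 (also called vasa) had a log2 difference of 1.91 ± 0.38 and Casp2, which encodes a caspase, one of 1.99 ± 0.45, both with an adjusted p under the limit but a change under 4-fold. The sign of Ddx4, Casp2 and Casp9 turned with the 50th percentile and with normexp. Casp9 stood at 1.56, and the spindle factor gene Tpx2 was above background on 1 IP and differed by -0.69. The pluripotency factor genes Sox2 and Sall4 differed by 3.90 and 2.69 but were above background on 1 and on neither of the IPs, and Tex11, an X-linked meiotic gene, was above it on neither. Without the first IP array 7 of the 12 were called, and without the second input array 6 were. In both cases Ddx4 (2.03 and 2.04) and Casp2 (2.38 and 2.15) had crossed the fold limit, and without the first IP array Sox2 was read above background in the IP.

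**Figure D3:**
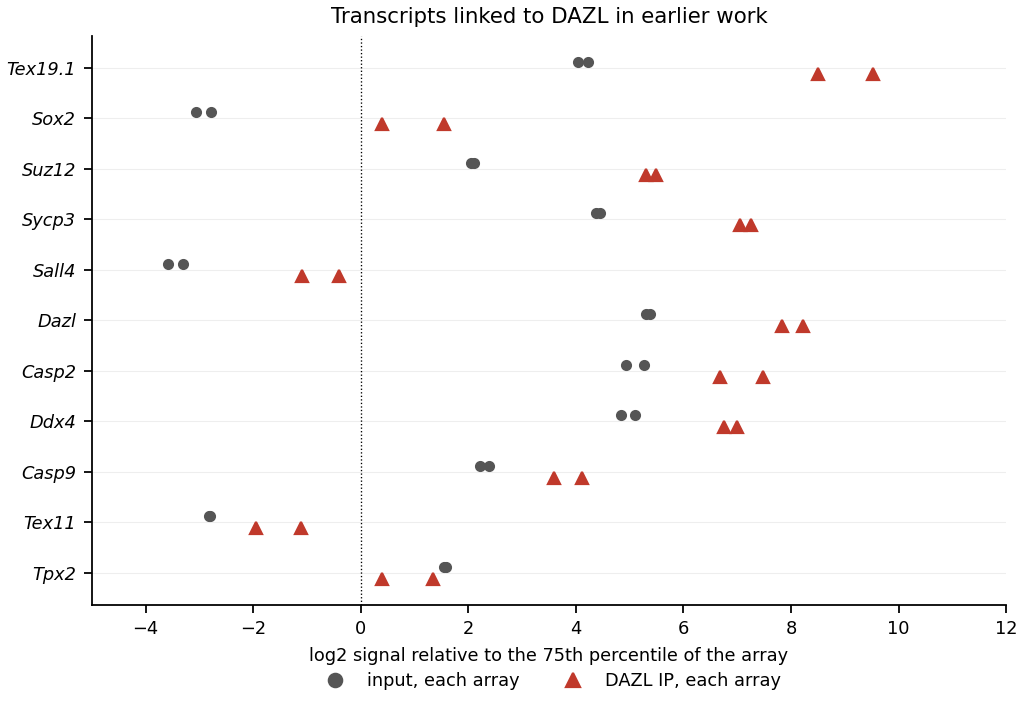
Log2 signal relative to the 75th percentile on each of the 2 input arrays (grey circles) and 2 DAZL IP arrays (red triangles) for 11 of the 12 transcripts linked to DAZL in earlier work, ordered by their log2 difference. Tpx2 is the only one whose IP values both lie below its input values, and Sall4 and Tex11 were above background on neither IP.

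The largest rises were found for genes of varied function. Rnf138, which encodes a RING-type ubiquitin ligase, rose from 4.78 and 4.91 in the inputs to 10.47 and 11.01 in the IPs, a log2 difference of 5.90 ± 0.39, and had the highest mean IP signal of all genes tested. Its other 2 probes differed by 5.22 and 2.48. Eif1b, a close relative of the start codon selection factor gene Eif1, rose from 4.71 and 4.88 to 9.98 and 11.08 (probe on mm8 chromosome 9, 120343753 to 120343812), a log2 difference of 5.74 ± 0.45. Ccnb1ip1 (HEI10), a ubiquitin ligase needed for meiotic crossovers, rose from 3.14 and 3.25 to 8.19 and 8.95, a log2 difference of 5.38 ± 0.43. In all 3 both IPs lay above both inputs, which the rule for choosing these genes required.

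The rest of the 15 largest rises lay between 4.79 and 5.30. They were Paqr9, a gene of the progestin and adipoQ receptor family, Ttc33, Senp8 and Dcun1d3, both of which act on the ubiquitin-like protein NEDD8, Chic2, the ubiquitin ligase gene Siah1b, Alkbh5, a demethylase of N6-methyladenosine in RNA, Tex30, D030056L22Rik, H2-Q1, Tex19.1 and the phosphatase gene Dusp14. Their input signals ranged from -2.04 and -1.49 for Dusp14 to 5.12 and 5.41 for Siah1b, so faint and well-expressed RNAs were both among them. Siah1b and H2-Q1 have near-identical relatives in the genome, and their probes may have read these too.

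**Figure D4:**
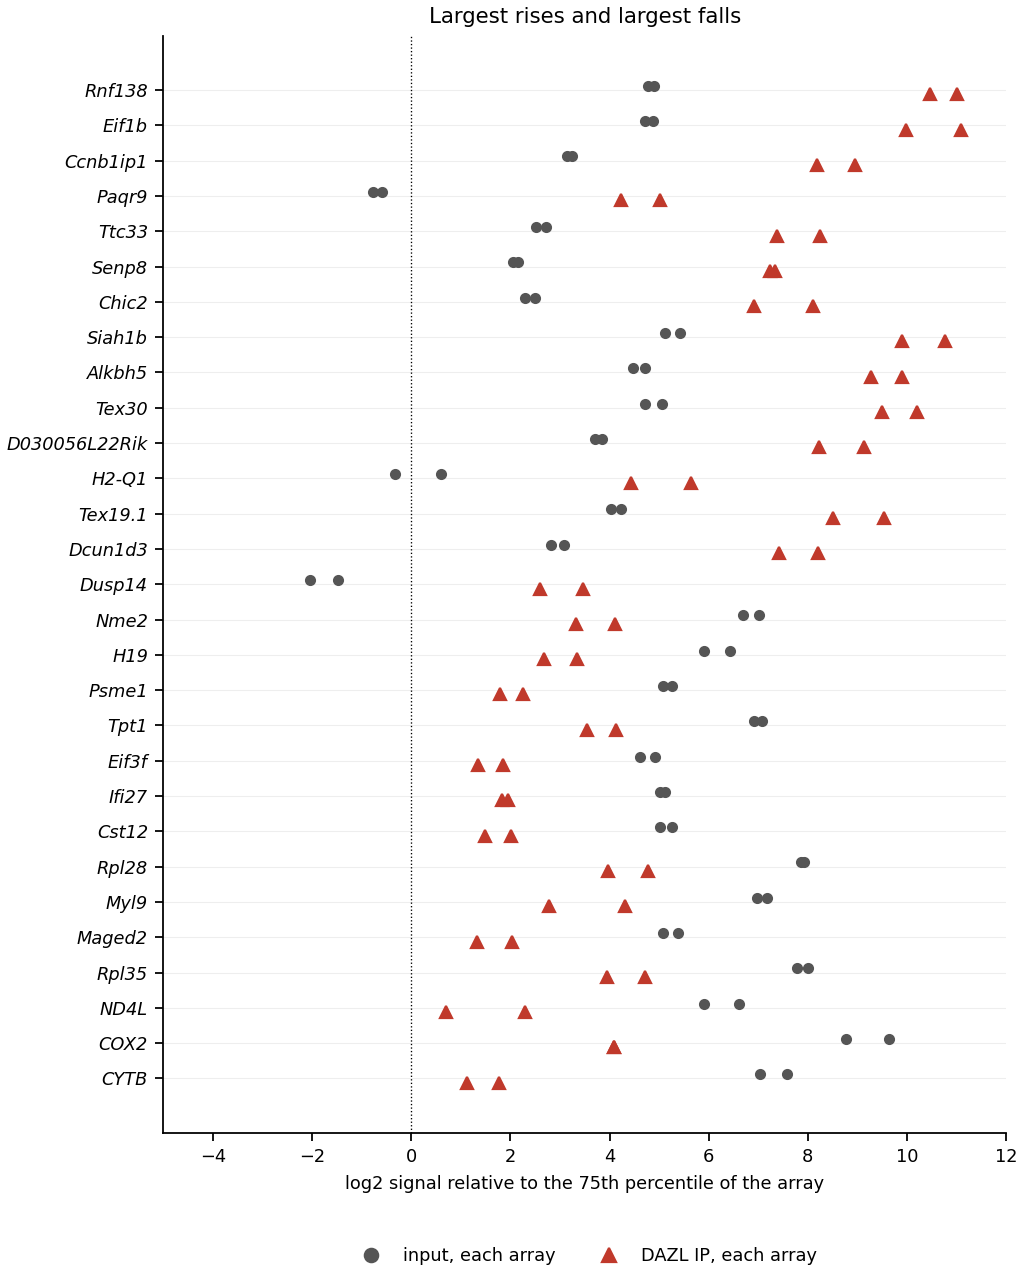
Log2 signal relative to the 75th percentile on each input array (grey circles) and each DAZL IP array (red triangles) for the 15 genes with the largest rises and 14 of the 15 with the largest falls among genes above background on all 4 arrays. The inputs and the IPs are apart in every row, which the rule for choosing these genes required.

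Germline classes other than meiotic prophase had the highest medians of the 39 classes in this setting. With the common floor the piRNA list (0.30 relative to all genes) lay just below the F-box (0.32) and splicing (0.31) lists, and the pluripotency list (0.02) below the Polycomb list (0.22) as well. With normexp the Sertoli and Leydig list (0.91) lay above the earlier targets (0.73), and the macrophage (0.70) and Hox (0.54) lists above the germline RNA-binding protein (0.51) and piRNA (0.33) lists. Without the second IP array the piRNA list (1.08) was below the Polycomb (1.36) and Sertoli and Leydig (1.34) lists. With detection on all 4 arrays the Polycomb list (1.86) was above the pluripotency (1.77), germline RNA-binding protein (1.48) and piRNA (1.34) lists. The apoptosis list (1.52) was then above the germline RNA-binding protein and piRNA lists, and the RNF and TRIM list (1.35) just above the piRNA list. The Hox (4.18) and Sertoli and Leydig (2.60) lists, with 1 gene each, were above every germline list. Of 30 tested genes for germline RNA-binding proteins, 9 were recovered (30.0%, against 8.39%) and none was depleted, with a median log2 difference of 1.69. Elavl2, an ELAV-family protein gene, was at 2.82 and 2.91 in the inputs and 7.53 and 7.77 in the IPs, a log2 difference of 4.78 ± 0.37. Rbm46 differed by 4.36 ± 0.42, Rbmxl2 by 4.01 ± 0.44, Cpeb1, a regulator of cytoplasmic polyadenylation, by 3.99 ± 0.46 and Meioc, which maintains the meiotic programme, by 3.65 ± 0.47. The other recovered members of this list were Dazl, Celf1, Tdrd5 and Tdrd1. Boll, the nearest relative of Dazl on the list, stood at 0.77 ± 0.44 and did not pass. Nanos2 and Nanos3 were above background on none of the 4 arrays.

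Of 17 piRNA pathway genes, 5 were recovered (29.4%, against 8.39% of all genes) and none was depleted, with a median of 1.68. Relative to all genes the median was 1.78, and 1.08 without the second IP array. Pld6, a mitochondrial endonuclease of piRNA biogenesis, rose from 0.55 and 0.61 to 3.07 and 4.00, while Tdrd5, Tdrd1, Piwil2 and Fkbp6 lay between 2.01 and 2.22, close to the fold limit, and Fkbp6 turned sign with the 50th percentile and with normexp. The number of recovered genes was 1 without the second IP array and 3 without the first input array. Gtsf1 stood at -1.22 and Mael at -0.59, and both failed the fold limit.

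Meiotic prophase genes were split. Of 40 tested, 7 were recovered (17.5%, against 8.39% of all genes) and 3 depleted (7.50%, against 11.5%). Their median of -0.01 was close to that of all genes. In the highest bin of input level 6 of 19 were recovered and 1 depleted, against 10.8% and 22.4% of all genes there. Behind Ccnb1ip1, the recovered genes were Terb2 (3.90 ± 0.41), which links telomeres to the nuclear envelope, Meioc, Tex12 (3.47 ± 0.43), Sycp3, Syce2 and Stra8, the retinoic acid-induced gene of meiotic entry (2.11 ± 0.49). Tex12 and Syce2 encode partners in the central element of the synaptonemal complex, and Tex12 rose from 5.08 and 5.24 to 8.23 and 9.03. Other members of the same structure behaved differently. Sycp2 and Syce3 were above background on 1 IP each, Syce1 stood at -0.53 and the cohesin genes Rec8, Stag3 and Smc1b at -1.14, -1.83 and -0.75, none of them called. Among the depleted members, Psmc3ip, a recombination cofactor, was at least 3.06-fold lower. Sycp1 was at 3.89 and 3.58 in the inputs but at 3.17 and -0.56 in the IPs, so its fall rested on the second IP array.

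Genes of pluripotency and primordial germ cells had a median of 2.21, with 5 of 20 recovered (25%, against 8.39% of all genes) and none depleted. These were Tex19.1, Prdm1, a specification factor of germ cells (3.88 ± 0.51), the receptor tyrosine kinase gene Kit (2.89 ± 0.42), Dppa3 (2.51 ± 0.48) and Zfp42 (2.16 ± 0.45). The number recovered was 9 without the first IP array. The inputs of this list were faint, with a median log2 signal of -1.64, and 8 of the 20 genes were above background on both IPs. With the common floor 3 were recovered and the median relative to all genes was 0.02, against 2.31 without it. Y-linked genes, which read as background on all 4 arrays, also had positive differences, of 3.50 for Ddx3y and 3.77 for Eif2s3y. Dppa5a, in contrast, stood at -1.78. Of 7 tested oocyte factors, 3 were recovered (42.9%, against 8.39% of all genes). Relative to all genes their median was 2.43, but 1.00 with normexp, where none was recovered, and 0.34 with the common floor. Lhx8, a transcription factor of early oocytes, rose from -1.22 and -1.14 to 2.96 and 3.92, Sohlh2 differed by 3.17 ± 0.46 and Taf7l by 2.33 ± 0.39, whereas Figla stood at -0.88.

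**Figure D5:**
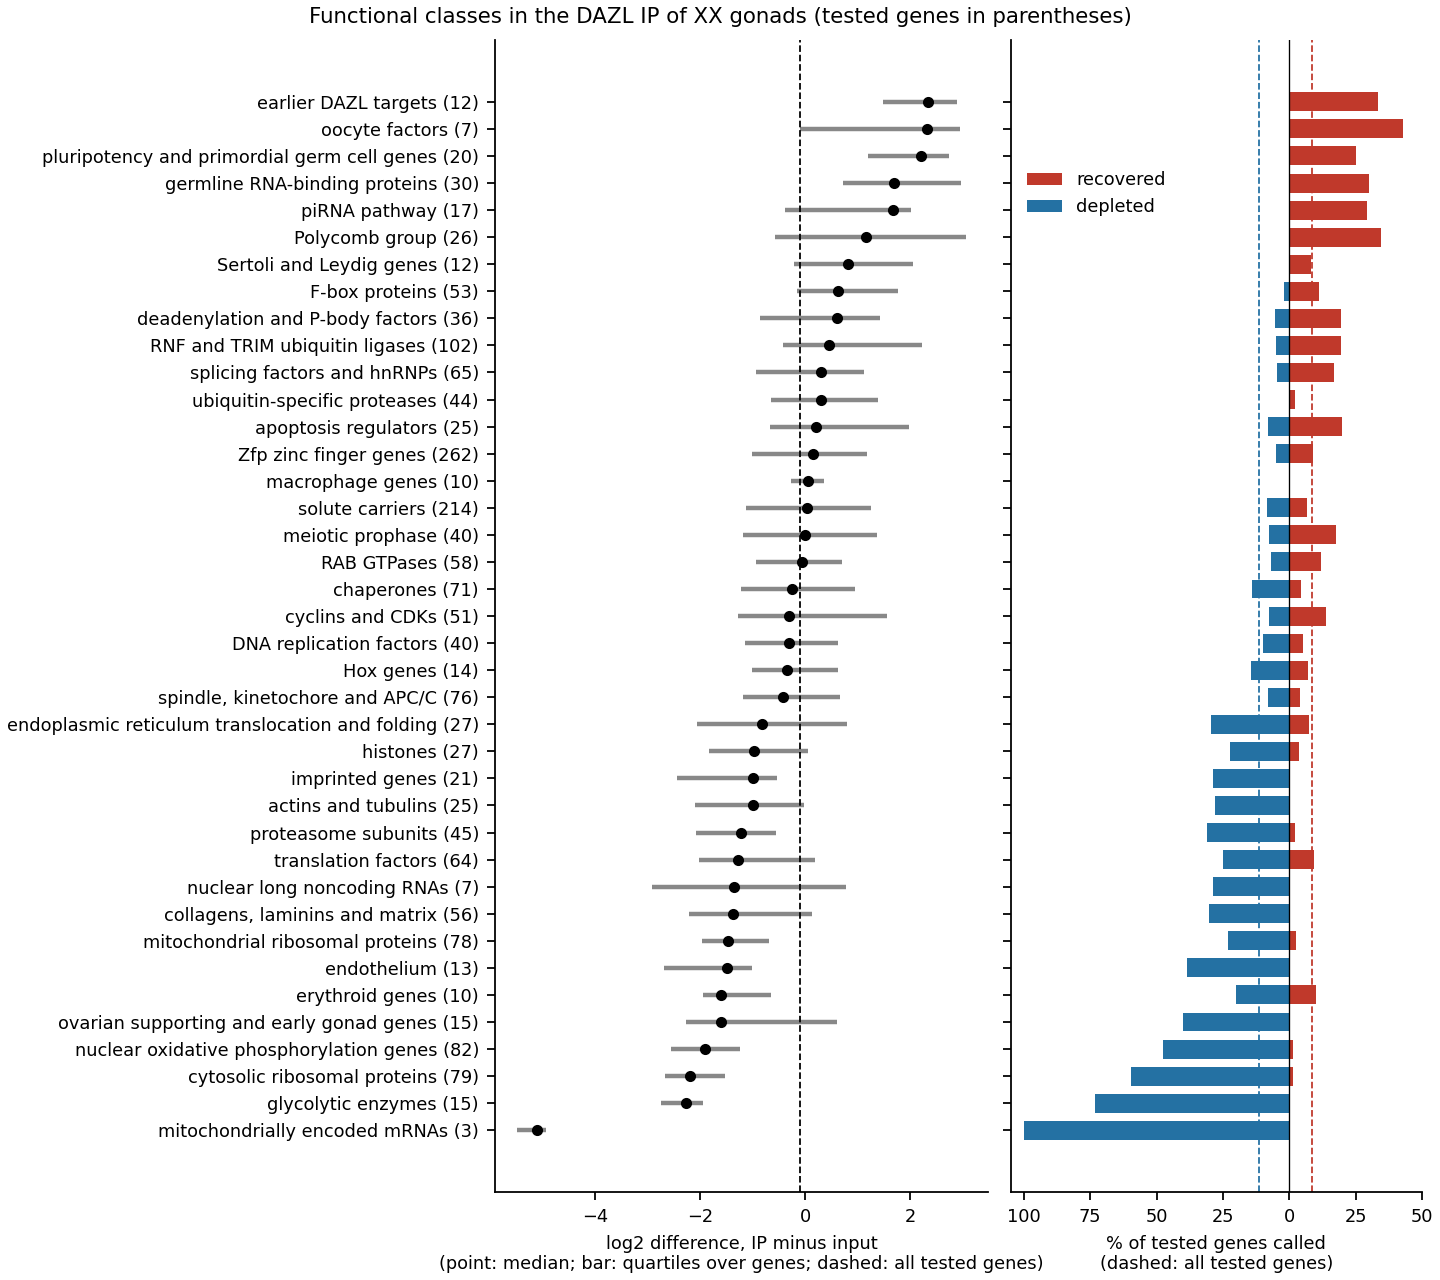
Left, the median (point) and quartiles (bar) of the log2 difference, IP minus input, over the tested genes of 39 functional classes, with the number tested in parentheses and the median of all tested genes as a dashed line. Right, the share of each class recovered (red) and depleted (blue), with the shares of all tested genes, 8.39% and 11.5%, as dashed lines. Germline classes other than meiotic prophase stand at the top, and energy metabolism and ribosomal proteins at the bottom.

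The Polycomb group, which silences developmental genes through histone marks, had 9 of 26 genes recovered (34.6%, against 8.39% of all genes) and none depleted. Its middle range ran from -0.57 to 3.06 around a median 1.26 above that of all genes, so the class was wide. With the common floor the median was 0.22 above that of all genes, and with normexp 0.30 above it, with 1 gene recovered. Among the 9 were 6 members of Polycomb repressive complex 1 or its variants: Pcgf5 (4.74 ± 0.41), the catalytic subunit gene Rnf2 (4.13 ± 0.41), Yaf2 (3.51 ± 0.49), Bmi1 (3.33 ± 0.39), Pcgf3 (3.20) and Rybp (3.19). Pcgf5 rose from 2.93 and 2.86 to 7.24 and 8.02. Suz12, Jarid2 and Rbbp4 belong with Polycomb repressive complex 2, whose other core genes Ezh2 and Eed were not called and were above background on 1 and on neither of the IPs. In the highest bin of input level, 5 of 9 Polycomb genes were recovered, against 10.8% of all genes there.

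Ubiquitin ligases of the RNF and TRIM families had 20 of 102 genes recovered (19.6%, against 8.39% of all genes) and 5 depleted (4.90%), 8 without the second IP array. Their median was 0.46, and with the common floor it was at that of all genes. Behind Rnf138 came Rnf7, a subunit of cullin-RING ligases (4.42 ± 0.45), Rnf11 (4.31 ± 0.42), Rnf2 and Rnf141 (3.94 ± 0.43). Trim24 and Rnf213 fell, by 2.11 and 2.09 on the log2 scale. Among 53 F-box protein genes, 6 were recovered (11.3%, nearer to the 8.39% of all genes), led by Fbxo45 (4.55 ± 0.43), and 13 without the first IP array. Among 44 ubiquitin-specific protease genes only Usp32 was recovered (3.51 ± 0.39), and 3 genes were without the first IP array.

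Splicing factor and hnRNP genes had 11 of 65 recovered (16.9%, against 8.39% of all genes) and 3 depleted (4.62%, against 11.5%). Their inputs were abundant, and in the highest bin of input level 6 of 39 were recovered and 1 depleted, against 10.8% and 22.4% of all genes there. Srsf10 rose from 0.84 and 0.93 to 4.93 and 5.39, a log2 difference of 4.27 ± 0.38. The related SR protein genes Srsf7, Srsf2, Srsf1 and Srsf3 lay between 2.70 and 3.37, Hnrnpll at 3.48 ± 0.48 and Hnrnpf at 3.47 ± 0.43, while Prpf31 fell by 2.56. With normexp and its offset none was recovered and 16 were depleted, and the median relative to all genes turned from 0.41 to -0.77. Leaving out 1 IP array gave 0.07 or 0.78. The direction of this class thus changed with that setting, and what turned it was not tested. Probes of Hnrnpa2b1 disagreed, one at 2.49 and one at -3.08.

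Of 36 genes for deadenylation and processing-body factors, 7 were recovered (19.4%, against 8.39% of all genes) and 2 depleted (5.56%, against 11.5%). Relative to all genes their median was 0.71, and 0.91 without the first and 0.35 without the second IP array. Ago4, an Argonaute gene, rose from 0.18 and 0.27 to 3.39 and 3.95. Cnot6l, a catalytic deadenylase of the CCR4-NOT complex, differed by 3.14 ± 0.39, Cnot4 by 3.00 ± 0.38 and the decapping factor gene Dcp1a by 2.84 ± 0.44, and Btg3, Tnrc6c and Tnrc6a completed the list. Cnot1, the scaffold of the complex, was above background on 1 IP and Ddx6 on neither, and neither gene was called.

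Other classes varied in their share of recovered genes. Of 51 cyclin, CDK and CDK inhibitor genes, 7 were recovered (13.7%, against 8.39% of all genes), with Cdkn2d (4.03 ± 0.46), Ccne2 (3.95 ± 0.57) and Cdk17 (3.90 ± 0.45) at the top. In the same list 4 were depleted (7.84%, against 11.5%), among them the inhibitor gene Cdkn1c (-2.57 ± 0.56). The median of this list relative to all genes was -0.20, but 0.23 without the first IP array and -0.46 without the second. Of 25 apoptosis genes, 2 were depleted (8%, against 11.5% of all genes) and 5 were recovered (20%, against 8.39%): Pmaip1 (3.24 ± 0.49), Trp53 (3.18 ± 0.39), Xiap (3.14 ± 0.38), Diablo (2.44 ± 0.44) and Mcl1 (2.08 ± 0.45), whose sign turned with normexp. These 5 include both promoters and inhibitors of cell death, and 3 genes of the list were recovered without the second IP array. Of 58 RAB GTPase genes, 7 were recovered (12.1%, against 8.39% of all genes) and 4 depleted (6.90%, against 11.5%), with Rab1a at 4.19 ± 0.41 and Rab6a at 3.65 ± 0.40 among the recovered. Zfp zinc finger genes were recovered at 8.78% (23 of 262), a share like that of all genes, although Zfp318 reached 4.75 ± 0.38. Recovery of solute carriers (14 of 214, 6.54%), spindle and kinetochore genes (3 of 76, led by Spc25 at 3.61 ± 0.46) and DNA replication factors (Orc4 and Rpa2 of 40, and 1 gene without the second IP array) lay below that share.

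On the depleted side, the 3 mitochondrially encoded mRNAs with a tested probe showed the largest falls among genes above background on all 4 arrays. These are read inside mitochondria, away from cytoplasmic mRNA. CYTB was at 7.03 and 7.58 in the inputs and 1.76 and 1.12 in the IPs (mm8 chromosome M, 15099 to 15158), and fell by 5.86 on the log2 scale. COX2 fell from 8.76 and 9.63 to 4.10 and 4.08. The files place the COX2 probe on mm8 chromosome 1 (24569175 to 24569234), so RNA of a nuclear copy cannot be told apart from the mitochondrial mRNA there. For ND4L the signal went from 5.91 and 6.60 to 2.29 and 0.70. All 3 stayed above background on both IPs.

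Cytosolic ribosomal protein genes were the most uniform large class. Of 79 tested, 47 were depleted (59.5%, against 11.5% of all genes) and 1 was recovered, and their quartiles of -2.66 and -1.52 lay on one side of the median of all genes. These were also among the brightest RNAs of the inputs, with a median log2 signal of 8.38, and 77 of them lay in the highest bin of input level, where 46 were depleted against 22.4% of all genes. In the IPs 78 of the 79 were still above background, so these falls were measured on both sides. Rpl35 went from 7.78 and 8.01 to 3.94 and 4.72, a log2 difference of -3.56 ± 0.42, Rpl28 from 7.85 and 7.93 to 3.97 and 4.78, and Rps3a1, Rpl24 and Rpl13a lay between -3.12 and -2.98. The smallest changes were those of Rpl31 (-0.07), Rplp1 (-0.42), Rps7 (-0.50) and Rps14 (-0.50). Without the first IP array 29 were depleted, with a median relative to all genes of -1.71 against -2.08 with both. The recovered exception, Rpl21, was faint for this class (0.65 and 1.14 in the inputs), and its other probe was not above background in the IPs and differed by -0.26. Many ribosomal protein genes have processed pseudogenes that a probe may read.

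Translation factors went both ways, with 6 of 64 recovered (9.38%, near the 8.39% of all genes) and 16 depleted (25%, against 11.5%), 7 without the first IP array. In the highest bin of input level 14 of 40 were depleted, against 22.4% of all genes there. Eif3f (-3.17 ± 0.41), Eif5b (-2.78 ± 0.52), Eef1b2 (-2.71 ± 0.43), Eif3l (-2.28 ± 0.40) and Eef1d (-2.25 ± 0.42) fell. Eif1b, Eef1e1, Eif5a2 (3.29 ± 0.39), the cap-binding protein gene Eif4e (2.87 ± 0.41) and Eif1a (2.80 ± 0.43) rose. Closely related genes could differ. While Eif1b rose by 5.74, Eif1 went from 6.76 and 6.92 to 4.21 and 5.13, a log2 difference of -2.16 ± 0.46. Eif5a2 stood at 3.29 while Eif5a was above background on 1 IP and was not called. Eef1a1, one of the most abundant mRNAs of the inputs, differed by 0.33 ± 0.49.

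Genes of energy metabolism were often depleted. Of 82 nuclear genes of oxidative phosphorylation, 39 were depleted (47.6%, against 11.5% of all genes), 1 was recovered and 42 were not called, with a median of -1.91. In the highest bin of input level 36 of 71 were depleted, against 22.4% of all genes there. Among its members, the ATP synthase genes Atp5j2 and Atp5o stood at -2.99 and -2.84, and the complex I genes Ndufa2 and Ndufs4 at -2.88 and -2.82, all of them depleted. Ndufc2, also of complex I, was the exception, rising from 5.48 and 5.76 to 8.38 and 9.36. Of 15 tested glycolytic enzymes, 11 were depleted (73.3%, against 11.5% of all genes) and none was recovered. Pgk1 went from 5.04 and 4.88 to 1.63 and 2.32, Ldha fell by 2.69, Aldoa by 2.57, Ldhb by 2.48 and Gpi1 by 2.26. The 4 not called were Eno1, Pfkp, Hk2 and Aldoc, of which Hk2 was above background on 1 IP and the others on neither.

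Mitochondrial ribosomal protein genes had 18 of 78 depleted (23.1%), but this count was 6 without the first IP array and 30 without the second. In the highest bin of input level 13 of 49 were depleted, against 22.4% of all genes there. Mrps34 (-2.77 ± 0.42) and Mrpl23 (-2.67 ± 0.45) fell, and Mrps14 (3.27 ± 0.46) and Mrpl50 (2.47 ± 0.43) rose, with 4 recovered genes in place of 2 without the first IP array. Of 45 proteasome subunit genes, 14 were depleted (31.1%, against 11.5% of all genes), 7 without the first IP array, and in the highest bin of input level 10 of 29 were, against 22.4%. They were led among those detected throughout by the activator subunit genes Psme1 (-3.15 ± 0.41) and Psme2 (-2.76 ± 0.44). Only Psma8 was recovered, with a log2 difference of 3.30 and IP signals of 4.03 and 5.07. It is the germ cell-specific counterpart of Psma7, which went from 5.67 and 5.87 to 3.17 and 3.89.

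Genes of the secretory pathway were mixed. Of 27 genes of endoplasmic reticulum translocation and folding, 8 were depleted (29.6%, and in the highest bin of input level 8 of 23, against 22.4% of all genes there) and 2 recovered, against 4 and 4 without the first IP array. The folding factor genes Hsp90b1 and Hspa5 fell by 2.41 and 2.38 and the translocon-associated gene Ssr4 by 2.64, while Ssr1 of the same complex rose by 2.62 ± 0.43 and Sec62 by 2.55 ± 0.39. Among 71 chaperone genes, 10 were depleted (14.1%, near the 11.5% of all genes), and 3 were recovered, 9 without the first IP array, where the median relative to all genes was 0.05 against -0.14 with both. Among the 3, the stress-induced Dnajb9 went from 1.84 and 2.10 to 6.01 and 6.70.

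Among genes of somatic cells, depletion was more frequent than recovery in the supporting cell, endothelial and matrix lists. Of 15 ovarian supporting and early gonad genes, 6 were depleted (40.0%, against 11.5% of all genes), 3 without the first IP array, and none was recovered. Amhr2, the anti-Müllerian hormone receptor gene, went from 5.69 and 5.71 to 2.55 and 3.12, Rspo1, an ovary-determining activator of WNT signalling, from 6.29 and 6.30 to 3.42 and 4.10, and Wt1 from 4.34 and 4.36 to 1.94 and 2.50. Fst, read above background on 1 of the IPs, was depleted too, and Wnt4, read on neither, was at least 2.09-fold lower. Of 13 endothelial genes, none was above background on both IPs and 5 were depleted (38.5%, against 11.5% of all genes), Kdr at least 3.09-fold and Robo4 at least 4.17-fold. Of 56 collagen, laminin and other matrix genes, 17 were depleted (30.4%, against 11.5% of all genes) and none was recovered. Dcn fell from 4.71 and 4.96 to 1.56 and 1.86, Sparc by 3.03 and Agrn by 2.23, whereas Col1a1 and Col3a1 stood at -1.86 and -1.41. With the common floor, 4 of the matrix genes and none of the endothelial genes stayed past 4-fold, so most of these falls reached the IP background, and the matrix median was then at that of all genes.

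Of 10 erythroid genes, 2 were depleted (20%, against 11.5%) and 1 was recovered, with a median of -1.60. Hba-a1 fell from 7.69 and 8.27 to 4.74 and 6.29 and was not absent from the IPs, and Tfrc, the transferrin receptor gene that other growing cells also express, was the one called in the other direction (2.37 ± 0.40). None of 10 macrophage genes was called, and none was above background on both IPs. Cyp26b1, which degrades retinoic acid, was the only recovered gene of the 12 on the Sertoli and Leydig list (8.33%, against 8.39% of all genes). It went from -1.26 and -1.10 to 2.31 and 1.67. Its input lay in the lowest bin, where detection set the share recovered, and with the common floor it was not recovered.

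Several other abundant RNAs fell. Among imprinted genes, 6 of 21 were depleted (28.6%, against 11.5% of all genes) and none was recovered: H19 went from 6.43 and 5.90 to 2.68 and 3.35, Dlk1 fell by 2.68, Cdkn1c by 2.57 and Mest by 2.51, Sgce, read on 1 of the IPs, fell as well, and Meg3 was at least 7.67-fold lower. The nuclear noncoding RNA Malat1 was at least 7.99-fold lower. Of 25 actin and tubulin genes, 7 were depleted (28%, against 11.5%), 4 without the first IP array, including Tuba1a (-2.65 ± 0.52) and Actb (-2.15 ± 0.49). The files place the Actb probe on mm8 chromosome X (147774990 to 147775049), so RNA of another genomic copy cannot be told apart from Actb mRNA there. Of 27 histone genes, 6 were depleted (22.2%, and 2 of the 9 in the highest bin of input level, against 22.4% of all genes there) and 1, the replacement histone gene H3f3b, was recovered on its brightest probe, from 7.39 and 7.75 to 9.58 and 10.21, while H3f3a, which encodes the same protein, stood at 0.72 ± 0.42. Of 14 Hox genes only Hoxc4 was recovered (7.14%, against 8.39% of all genes), with IP signals of 3.91 and 0.80 that differed by more than 3 log2 units. Its input lay in the lowest bin, and with the common floor it was not recovered. Large falls outside the classes were those of Maged2 (-3.55), Myl9 (-3.53), Cst12 (-3.38), Ifi27 (-3.17), Tpt1 (-3.16) and Nme2 (-3.14).

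Recovered genes were longer in the genome than depleted genes. Genomic length, from first to last exon with introns, is given in the RefSeq table of GRCm38.p6 for all 12223 genes. Its median was 31.9 kb in the recovered genes, 13.1 kb in the depleted genes and 22.8 kb in all. Over 4 equal bins from the shortest to the longest genes, the recovered share went from 5.10% to 7.43%, 10.6% and 10.4%, and the depleted share from 18.4% to 11.5%, 9.13% and 6.90%. Ribosomal protein genes, with a median of 3.16 kb, lie mostly among the short genes, and the length of the mature mRNA was not measured.

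Further probes of a gene were called in its direction more often than those of uncalled genes. Over 503 recovered genes with further tested probes, 88.3% of 683 such probes lay above 0 and 37.8% were recovered themselves, against 3.51% of the further probes of genes not called. Of the further probes of uncalled genes 60.2% lay above 0 as well. Over 416 depleted genes, 30.5% of 485 further probes were depleted, against 3.46% for uncalled genes, and 26.8% lay above 0. Probes of 5 genes were called in opposite directions. These were Brix1, Hnrnpa2b1, Ncl, Slc4a7 and Tra2a, and their values are uncertain.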

How the data were processed

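Total RNA of lysate and of DAZL immunoprecipitates of XX and XY gonads was labelled with Cy3 and hybridized to 8 single-colour Agilent whole mouse genome arrays, 2 per group. The arrays of XX samples shared 1 slide. Processed signal intensities, mean spot intensities and local background intensities were deposited as made by Feature Extraction (version 9.5.3.1 in the file headers, 9.5 in the submitters' processing notes). The deposited log2 table had been scaled by the authors to the 75th percentile, with values under 1 set to 1. No normalization between arrays was present in the scanner intensities.

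From the scanner values, control and outlier spots were dropped, signals under 1 were set to 1, spots of a probe were averaged, and log2 signals were set relative to the 75th percentile of each array's probes. Probes above background on both arrays of any group were tested. A linear model of 4 group means over all 8 arrays was fitted with limma 3.58.1 in R 4.3.3 and moderated by empirical Bayes (residual df 4, prior df 7.82), and two-sided p-values were adjusted by Benjamini-Hochberg over 18265 probes. Errors are standard errors of the fit. On simulated data for this contrast with 200 of 18265 probes changed 8-fold, 197 were found, with 10 false calls. The simulation had no IP background floor and no condition on detection, and changed fewer probes than were called here. It therefore does not give the error rate of the reported calls. With 2 arrays per group, their number limits the precision.

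Probes were named through the accession in the files (23331), the symbol there (6724) or an older symbol (2914) in RefSeq's GRCm38.p6 gene table, and 8132 stayed unnamed. Positions are those of the files (mm8). Exons and untranslated regions, and probe and transcript sequences, were not analysed here. Each gene was represented by its probe of highest mean over the 8 arrays. A fall to an IP below background is given as "at least", with the IP taken per array as the weakest signal above background, or as the gene's own signal where that was higher.

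The classes (39 lists) and the genes to name were chosen with earlier results of these data known. Genes named were Dazl and the earlier targets, the 15 largest rises and falls among called genes above background on all 4 arrays, up to 5 in each direction per list by the same conditions, uncalled members of lists with 5 or fewer of them, and the markers. Other members named, such as Eif1, Kdr, Malat1 and Sycp1, were chosen after their values were seen. Classes are described by counts and medians, with no test over a class. Alternatives tried were other scalings, background correction, filters, the deposited table, a replicate block, the XX arrays alone and leaving out each array. A few genes that this rule names are not reported here, but they stay in the counts.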

Additional observations from a re-analysis of the deposited data

How the results depend on the processing

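Recovered and depleted probes (1497 and 1810) moved past 1.5-fold under some settings. Scaling to the 50th percentile gave 160 and 8643, and shifted the median of all genes by -2.01. Normexp gave 67 recovered, also with only the XX arrays fitted, a setting added after seeing the data because normexp could not be fitted properly on 2 XY arrays. Depleted probes numbered 3284 with quantile normalization (median shift -0.70; 1296 recovered), 2858 with the percentile taken over probes above background on all 8 arrays (shift -0.43; 1116 recovered), 637 with a common floor (1061 recovered) and 398 when only probes above background on all 4 arrays were tested. Higher calls made up 45.3% of all calls in the reported setting, 28.3% with quantile normalization, 28.1% with that other percentile, 1.82% with the 50th percentile, 3.11% with normexp, 62.5% with the common floor and 78.8% with detection on all 4 arrays. Leaving out 1 array gave 1450 to 2205 recovered and 1463 to 2400 depleted probes.

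The replicate numbers are not stated to mark a shared lysate, and the differences between replicates of input and IP correlated at 0.03 over 4206 probes, so the numbers were not used as pairs. A replicate block gave 1498 recovered and 1813 depleted probes and a Dazl difference of 2.69, and no call of a named gene changed.

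The Dazl difference was 0.68 (adjusted p = 0.18) with the 50th percentile and 0.45 with normexp (adjusted p = 0.55, or 0.11 with the XX arrays alone). It was 2.26 to 2.69 under the other planned settings with all arrays, and 2.49 to 2.89 with 1 array left out. Of 39 class medians relative to all genes, 34 kept their side with normexp, 36 with quantile normalization, 36 with the median over all probes of a gene, 36 to 38 with 1 array left out, and 31 of 37 with detection on all 4 arrays. With the common floor 23 did, and the other 16 were at 0 like all genes. Those that turned with normexp were meiotic prophase (-0.50), splicing factors (-0.77), ubiquitin-specific proteases (-0.02), Hox genes (0.54) and cyclins and CDKs (0.05).

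Among named genes, the sign turned with the 50th percentile for Casp2 (-0.0202), Casp9 (-0.45), Ddx4 (-0.10), Fkbp6 (-0.00191) and Tex11 (-0.73). It turned with normexp, with all arrays or the XX arrays alone, for Casp2 (-0.14), Casp9 (-0.0787), Ddx4 (-0.28), Fkbp6 (-0.16) and Mcl1 (-0.0471), and with quantile normalization for Tex11 (-1.24). Beyond the arithmetic of each scaling, the cause was not tested. The low signal of the IP arrays limits all falls of faint inputs.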

Other observations

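The recovered share differed between chromosomes of the RefSeq table. On the X chromosome 71 of 447 tested genes were recovered (15.9%), the highest share of the 20 chromosomes, and 46 were depleted (10.3%). The lowest recovered share was on chromosome 17, at 4.74% (28 of 591), and the depleted shares of all 20 lay between 9.33% and 13.8%. No test was made of these shares.

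Of 178 tested genes annotated as long noncoding RNA, 9 were recovered (5.06%, against 8.39% of all genes) and 12 depleted (6.74%, against 11.5%), with a median log2 difference of 0.23, while 1009 of the 1025 recovered and 1380 of the 1402 depleted genes were annotated as protein coding.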
